A study of Mus musculus with 8 samples.

Results

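Small nucleolar RNAs (snoRNAs) and other short noncoding RNAs of the nucleus and cytoplasm were examined in mouse macrophages that had been loaded with acetylated low-density lipoprotein (acLDL) or left unloaded. The members were the genes whose probe set carried a single symbol beginning with Snora, Snord, Scarna, Rny or Rnu and a digit, together with Rmrp, Rpph1, Rprl2, Rn7sk and n-R5s136. This gave 66 of the 19938 genes tested: 32 box C/D snoRNAs (31 Snord genes and Rnu3a), 20 box H/ACA snoRNAs, 3 Cajal body RNAs, 2 Y RNAs, 4 spliceosomal or histone-processing RNAs with U numbers and 5 single RNAs. The families were chosen with earlier results of these data known, and the rule itself used measured values only where a gene had more than 1 probe set, when the one that was brightest on average stood for it. This concerned 7 genes, and the largest gap between 2 probe sets of the same gene on any array was 0.292 (log2), for Rn7sk. In Scarna17, Snora30 and Snord118 the 2 probe sets held identical values on every array, so the second is no separate reading. A further 61 probe sets carried a symbol of these families together with other symbols and were not analysed here.

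The cells were peritoneal macrophages of C57BL/6J mice, harvested 5 days after an injection of thioglycollate, an irritant that draws monocytes into the cavity. There were 4 arrays of cells cultured with acLDL and 4 arrays of unloaded cells, cultured alike in DMEM with 10% fetal serum but with no agent added, and the series text calls them independent biological replicates. The sample protocols give 20 µg/mL acLDL for 3 days and the series text gives 50 µg/mL for 2 days, so dose and duration are not settled. RNA levels are given as log2 values after robust multi-array averaging (RMA), and differences are acLDL minus unloaded on that scale.

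Most snoRNAs work as guides inside small ribonucleoproteins. Box C/D snoRNAs carry the methyltransferase fibrillarin to sites of 2′-O-methylation in ribosomal RNA, and box H/ACA snoRNAs carry the pseudouridine synthase dyskerin. A few of them, among them U3, U8, U14, U17 and U22, are needed to cut the ribosomal RNA precursor, and Cajal body RNAs direct the same modifications to spliceosomal RNAs. In vertebrates most guide snoRNAs are trimmed out of introns of host genes, many of which encode ribosomal proteins or translation factors. Y RNAs, 7SK, 5S ribosomal RNA and the RNAs of RNase P and RNase MRP are instead transcribed from genes of their own by RNA polymerase III. In rodent cells, snoRNAs from the introns of Rpl13a have been linked to cell death caused by excess saturated fatty acids.

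The sequence tables used here hold no window for any of the 66 genes. The starts of 4 genes that enclose them are shown instead. Rps3, Rpl13a and Snhg1 were taken because they hold the snoRNAs Snord15a, Snord33 and Snord22, which rose by more than 1.5-fold. Ncl was taken because it holds 2 snoRNAs called in opposite directions, Snora75 lower and Snord82 higher. The call of Snord82 was lost in 6 of 18 alternative settings. Each stretch has 30 bases before and 30 bases after the annotated start, 5′ to 3′ on the gene's strand, from RefSeq on GRCm38.p6. Capitals mark the longest uninterrupted run of C and T letters after the start, since host genes of snoRNAs often begin with a pyrimidine tract.
Rps3, chr7:99483680-99483739, minus strand: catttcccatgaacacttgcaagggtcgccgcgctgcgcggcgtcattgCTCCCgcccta
Rpl13a, chr7:45128716-45128775, minus strand: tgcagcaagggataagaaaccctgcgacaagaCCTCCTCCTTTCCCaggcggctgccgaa
Snhg1, chr19:8723457-8723516, plus strand: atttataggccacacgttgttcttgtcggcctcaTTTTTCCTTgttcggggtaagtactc
Ncl, chr1:86359426-86359485, minus strand: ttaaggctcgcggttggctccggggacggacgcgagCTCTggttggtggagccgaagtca
The runs were 5 bases long in Rps3, 14 in Rpl13a, 9 in Snhg1 and 4 in Ncl. A run of at least 8 C or T letters in the 30 bases after the start, searched on the gene's strand alone, was present in 7 of 33 enclosing genes with a window (21.2%) and in 3148 of 27025 genes with a window (11.6%). This is a description of these letters, and the minimum of 8 was chosen after the sequences had been seen.

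Across the family the small RNAs did not move as one. There were 21 rises and 10 falls among the 66, and 35 did not pass limma's test at an adjusted p under 0.05, against 23.3% of all genes changed, 12.9% higher and 10.5% lower. The changes were large for this experiment: 12 members changed by at least 1.5-fold, 10 higher and 2 lower, where 2.03% of all genes did, and 7 members rose by at least 2-fold. The median difference of the 66 was 0.06, against -0.00 over all genes, and their median absolute difference was 0.246, against 0.111. The groups did not overlap in 27 members, 17 with acLDL above and 10 with acLDL below, where 25.6% of all genes did not overlap, 14% with acLDL above and 11.6% with acLDL below. The 95th percentile of olfactory receptor genes, 6.12, served as a mark of background, and 40 of the 66 members had a mean above it. RMA shrinks differences of genes near background, so sizes below that mark may be understated.

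**Figure D1:**
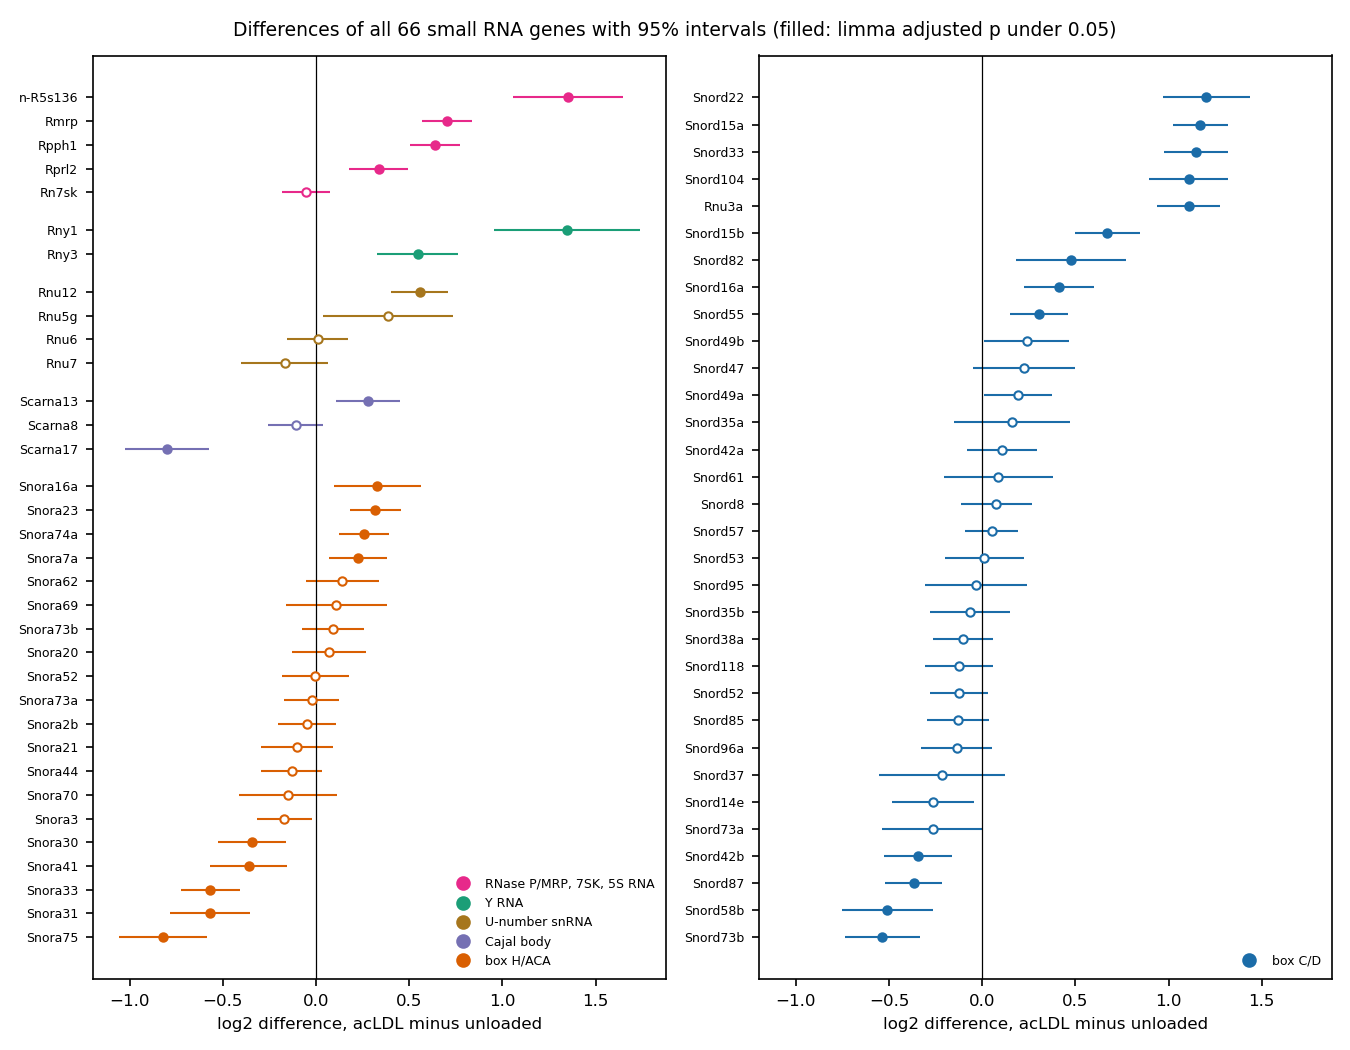
Log2 difference (acLDL minus unloaded, horizontal axis) of each of the 66 small RNA genes with its 95% interval, grouped by class; filled points passed limma at an adjusted p under 0.05. The 5 single RNAs and the Y RNAs lie mostly to the right of 0, from -0.05 for Rn7sk to 1.35 for n-R5s136, while box C/D RNAs spread from -0.54 to 1.20 and box H/ACA RNAs from -0.82 to 0.33.

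Most of the measured RNAs of RNA polymerase III genes rose, while 7SK and U6 did not pass. Of the 5 single RNAs 4 rose and 1 did not pass, and both Y RNAs rose. The 5S ribosomal RNA gene n-R5s136 had the largest difference of all members. It stood at 12.22, 12.12, 12.07 and 12.19 in acLDL arrays 1 to 4, against 11.27, 10.53, 10.48 and 10.91 in unloaded arrays 1 to 4. Its acLDL arrays were tight and all lay above the unloaded ones, which were spread over 0.80. The difference was 1.35 ± 0.14 (SE), or 2.55-fold (limma adjusted p = 1.49e-05). Mice carry many near-identical 5S copies that its probes cannot be expected to separate, and the same caution holds for the 7SK, U6 and Y RNAs and for the pairs Snord15a and Snord15b and Snora73a and Snora73b.

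The RNAs of the paired enzymes RNase MRP and RNase P rose by like amounts. Rmrp, the RNA of RNase MRP, which cuts the ribosomal RNA precursor, was at 11.79, 11.80, 11.82 and 11.78 in acLDL cells, against 11.03, 11.05, 11.23 and 11.06 in unloaded cells. The acLDL arrays agreed within 0.04 and lay above every unloaded array, and the difference was 0.70 ± 0.06 (SE), or 1.63-fold (limma adjusted p = 5.86e-06). Rpph1, the RNA of RNase P, which matures the 5′ ends of transfer RNAs, was at 12.79, 12.67, 12.75 and 12.67 in acLDL cells, against 12.01, 12.09, 12.16 and 12.07 in unloaded cells. It was 1.56-fold higher (difference 0.64 ± 0.06 SE, limma adjusted p = 1.01e-05). Rprl2, named as an RNase P RNA-like gene, rose less, at 9.16 ± 0.08 in acLDL and 8.82 ± 0.12 in unloaded cells (SD, n = 4), a 1.26-fold difference.

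Y RNAs bind the Ro60 protein and take part in RNA quality control and DNA replication. Rny1 was at 6.92, 6.73, 6.48 and 7.19 in acLDL cells, against 6.07, 5.26, 5.51 and 5.10 in unloaded cells. All acLDL arrays lay above the unloaded ones, although the unloaded arrays spanned 0.97, the widest range of any member. The difference was 1.35 ± 0.18 (SE), or 2.54-fold (limma adjusted p = 0.000139), and the unloaded level was below the olfactory mark. Rny3 was at 11.90, 11.60, 11.43 and 11.81 in acLDL cells, against 11.37, 11.09, 11.05 and 11.06 in unloaded cells. Its lowest acLDL array exceeded the highest unloaded array by little, and it was 1.46-fold higher (limma adjusted p = 0.0015).

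7SK (Rn7sk), which holds the elongation factor P-TEFb inactive, was the brightest member and did not pass. It was at 13.12, 13.19, 13.20 and 13.20 in acLDL cells, against 13.16, 13.23, 13.21 and 13.31 in unloaded cells, and the groups overlapped. The difference was -0.05, with a 95% interval from -0.18 to 0.08 (limma adjusted p = 0.581). Its second probe set gave -0.20 and passed when every probe set was tested (limma adjusted p = 0.0422), so the result depends on which of the 2 is read. At this brightness array signals can saturate, and saturation was not tested.

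Among RNAs with U numbers, Rnu12, of the minor spliceosome, rose. It was at 6.04, 5.80, 6.09 and 6.04 in acLDL cells, against 5.41, 5.43, 5.49 and 5.42 in unloaded cells, a 1.47-fold difference with no overlap (limma adjusted p = 8.79e-05). Rnu5g and Rnu6, of the major spliceosome, and Rnu7, which serves the 3′ ends of histone messages, did not pass. Their levels were low, at 3.98 ± 0.40, 2.94 ± 0.12 and 4.70 ± 0.19 in acLDL cells and 3.59 ± 0.23, 2.93 ± 0.10 and 4.87 ± 0.21 in unloaded cells (SD, n = 4). All 4 genes were below the olfactory mark. Rnu5g, with a difference of 0.39, passed without acLDL array 3 and with a replicate block, at a lowest limma adjusted p of 0.0143.

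**Figure D2:**
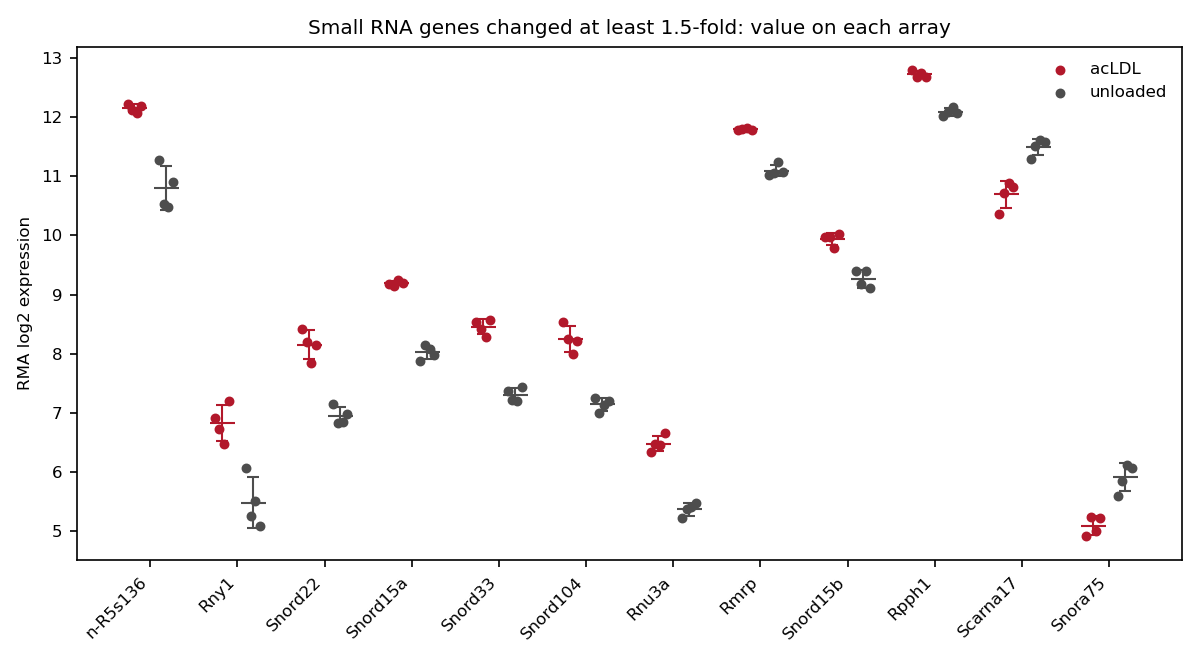
RMA log2 expression (vertical axis) of the 12 small RNA genes changed at least 1.5-fold, with 1 point per array, acLDL arrays in red to the left of unloaded arrays in grey, and bars for the mean ± SD of 4 arrays. The groups are apart in every gene shown, from n-R5s136 at 2.55-fold higher to Snora75 at 1.77-fold lower. Scarna17 was 1.74-fold lower, and Snora75 was below the olfactory mark (6.12) in both group means.

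Box C/D snoRNAs split into a few strong rises, some smaller falls and a majority that did not pass. Among the 32 there were 9 rises and 4 falls, and 19 did not pass, with a median difference of 0.06. Of the rises, 5 were above 2-fold. Snord22 (U22), which is needed to cut the precursor of the small ribosomal RNA, was at 8.42, 8.20, 7.84 and 8.15 in acLDL cells, against 7.14, 6.83, 6.84 and 6.98 in unloaded cells. The groups were well apart and the difference was 1.20 ± 0.11 (SE), or 2.30-fold (limma adjusted p = 5.82e-06). Rnu3a (U3), which pairs with the ribosomal RNA precursor for its first cuts, was at 6.34, 6.48, 6.45 and 6.65 in acLDL cells, against 5.22, 5.38, 5.42 and 5.48 in unloaded cells. Its acLDL level lay above the olfactory mark and its unloaded level below, and the 2.15-fold difference may therefore be understated (limma adjusted p = 6.97e-07). Snord118 (U8), which acts on the precursor of the large ribosomal RNA, did not pass, at 4.11 ± 0.09 in acLDL and 4.23 ± 0.17 in unloaded cells (SD, n = 4), a level below the mark. Snord14e, a copy of U14, did not pass either, at 8.17 ± 0.21 in acLDL and 8.43 ± 0.16 in unloaded cells (SD, n = 4), with a difference of -0.26 that passed in 4 of 19 alternative settings.

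Snord15a, Snord33 and Snord104 made up the other strong rises. Snord15a was at 9.19, 9.14, 9.24 and 9.20 in acLDL cells, against 7.88, 8.14, 8.08 and 7.98 in unloaded cells. The acLDL arrays were almost level, more than 1 log2 unit above the unloaded ones, and the adjusted p of this 2.25-fold rise was the smallest of all members (limma, 9.92e-08). Snord33, one of the Rpl13a snoRNAs, was at 8.54, 8.42, 8.29 and 8.57 in acLDL cells, against 7.38, 7.21, 7.20 and 7.44 in unloaded cells, a 2.21-fold rise (limma adjusted p = 5.95e-07). Snord104 was at 8.54, 8.25, 8.0 and 8.22 in acLDL cells, against 7.25, 6.995, 7.13 and 7.20 in unloaded cells. It was 2.15-fold higher, with its acLDL arrays more spread than its unloaded ones (limma adjusted p = 5.45e-06).

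The smaller rises were in Snord15b, Snord82, Snord16a and Snord55. Snord15b, the brightest box C/D member, was at 9.94 ± 0.10 in acLDL and 9.27 ± 0.15 in unloaded cells (SD, n = 4), a 1.59-fold rise. Snord16a and Snord55 were 1.33-fold and 1.23-fold higher, both with no overlap of the groups. Snord82 was dim and its groups overlapped, at 4.62, 4.81, 4.94 and 5.26 in acLDL cells against 4.32, 4.29, 4.28 and 4.83 in unloaded cells. Its call (difference 0.48, limma adjusted p = 0.0219) was lost without acLDL array 4, without unloaded array 1, 2 or 3, and in 2 other settings, with adjusted p up to 0.174 and a difference down to 0.33. Snord57, the next brightest after Snord15b, stood at 9.26 ± 0.07 in acLDL and 9.21 ± 0.08 in unloaded cells (SD, n = 4) and did not pass.

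Falls of box C/D snoRNAs were seen in 4 members. Snord73b was at 6.09, 6.38, 6.04 and 6.32 in acLDL cells, against 6.86, 6.55, 6.69 and 6.88 in unloaded cells, and fell by 0.54 ± 0.09 (SE; limma adjusted p = 0.000929). Snord58b fell by 0.51, Snord87 by 0.37 and Snord42b by 0.34, each with all acLDL arrays below all unloaded ones and with a mean under the olfactory mark. The size for Snord58b depended on the unloaded arrays read, since its difference was -0.28 without arrays 1 and 4 and -0.74 without arrays 2 and 3. The call of Snord42b was lost without unloaded arrays 1 and 4 (adjusted p = 0.0705). Snord37, also dim, did not pass and had a wide unloaded range of 0.76.

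Box H/ACA snoRNAs moved both ways in like numbers, and their falls were the larger. Among the 20 there were 4 rises and 5 falls, and 11 did not pass, with a median difference of -0.04. Snora75 was at 4.91, 5.24, 5.00 and 5.22 in acLDL cells, against 5.60, 5.85, 6.12 and 6.07 in unloaded cells. Every acLDL array was below every unloaded one, with a difference of -0.82 ± 0.11 (SE; limma adjusted p = 0.000127). Both group means lay below the olfactory mark, so the size of this fall is uncertain. Snora33 was at 6.09, 6.31, 6.09 and 6.14 in acLDL cells, against 6.73, 6.60, 6.72 and 6.85 in unloaded cells, a 1.48-fold fall (limma adjusted p = 9.37e-05). Snora31 was at 6.22, 6.14, 6.10 and 6.17 in acLDL cells, against 6.40, 6.70, 6.84 and 6.98 in unloaded cells, also 1.48-fold lower (limma adjusted p = 0.00104). Snora41 and Snora30 fell by 0.36 and 0.34, with no overlap but a narrow gap in both. The highest acLDL and lowest unloaded arrays were at 5.618 and 5.624 in Snora41 and at 6.277 and 6.287 in Snora30. The call of Snora41 was lost without unloaded arrays 1 and 4 (adjusted p = 0.0622).

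The rises among box H/ACA snoRNAs were all below 1.3-fold. Snora23 was at 6.34, 6.35, 6.23 and 6.31 in acLDL cells, against 5.95, 6.08, 5.91 and 6.03 in unloaded cells, a 1.25-fold difference with no overlap (limma adjusted p = 0.00262). Snora74a rose by 0.25 (limma adjusted p = 0.00949), also with no overlap. Snora16a and Snora7a rose by 0.33 and 0.23, but their groups overlapped. The call of Snora16a (limma adjusted p = 0.0433) was lost in 11 of 19 alternative settings, among them leaving out acLDL array 1, 2 or 4 or unloaded array 2, 3 or 4, with adjusted p up to 0.282. Its difference was 0.19 without unloaded arrays 2 and 3. The call of Snora7a (limma adjusted p = 0.0374) was lost in 10 of 19, among them leaving out acLDL array 1, 2 or 4 or unloaded array 2 or 3, with adjusted p up to 0.195. Snora73a and Snora73b, copies of U17, which is needed to cut the precursor of the small ribosomal RNA, did not pass. They were at 7.32 ± 0.07 and 7.57 ± 0.10 in acLDL cells and 7.34 ± 0.10 and 7.48 ± 0.13 in unloaded cells (SD, n = 4), with 95% intervals of the difference from -0.17 to 0.12 and from -0.08 to 0.26. Snora52 and Snora70, the brightest of the class, differed by -0.00 and -0.15 and did not pass.

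Of 3 Cajal body RNAs 1 rose, 1 fell and 1 did not pass. Scarna17 was at 10.36, 10.71, 10.89 and 10.81 in acLDL cells, against 11.29, 11.50, 11.61 and 11.57 in unloaded cells. It was bright, its groups were apart, and it was 1.74-fold lower (difference -0.80 ± 0.11 SE, limma adjusted p = 0.000112). Scarna13 was at 7.46 ± 0.15 in acLDL and 7.18 ± 0.09 in unloaded cells (SD, n = 4), with overlapping groups. Its call (limma adjusted p = 0.0214) was lost without acLDL array 2, 3 or 4, without unloaded array 4 and in 3 other settings, with adjusted p up to 0.135. Scarna8 was dim, at 4.65 ± 0.11 in acLDL and 4.76 ± 0.06 in unloaded cells (SD, n = 4), and did not pass.

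Rises were more frequent among the longer RNAs, without an even trend over the length classes. Lengths were those of the RefSeq gene table, and the bounds of the length classes were set after earlier results were known. The 16 members longer than 130 bases had 11 rises and 0 falls, and 5 did not pass. The 22 members of up to 75 bases had 2 rises and 5 falls, and 15 did not pass. Between 75 and 100 bases 3 of 8 rose and 0 fell, and between 100 and 130 bases 5 of 20 rose and 5 fell. The longest member that fell was Snora75, at 116 bases. Over the 66 members, which share the same 8 arrays, Spearman's rho of length and difference was 0.37, and it was 0.43 over the 32 box C/D and 0.66 over the 20 box H/ACA snoRNAs. It was lower, at 0.28, both over the 40 members above the olfactory mark and over the 54 enclosed members. Rank correlation of the difference with the mean level was 0.36 over the 66, 0.52 over box C/D and 0.14 over box H/ACA snoRNAs. It was 0.34 over the 40 members above the olfactory mark and 0.30 over the 54 enclosed members. For box C/D snoRNAs and for members above the mark it thus exceeded the correlation with length. Array-wide signal was read against genomic span, which includes introns and is not RNA length, over 11627 genes above the olfactory mark. The rank correlation of each array's deviation with span ran from -0.20 to -0.01 in acLDL and from -0.05 to 0.23 in unloaded arrays. The ranges overlapped, with unloaded arrays 2 and 3 at -0.02 and -0.05. Only unloaded arrays 1 and 4, at 0.23 and 0.21, had positive values. No direction for the groups or for the members is read from span. RNA was prepared with a silica column, which retains short RNAs poorly as a rule. The part of length or of recovery in the differences was not tested.

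**Figure D3:**
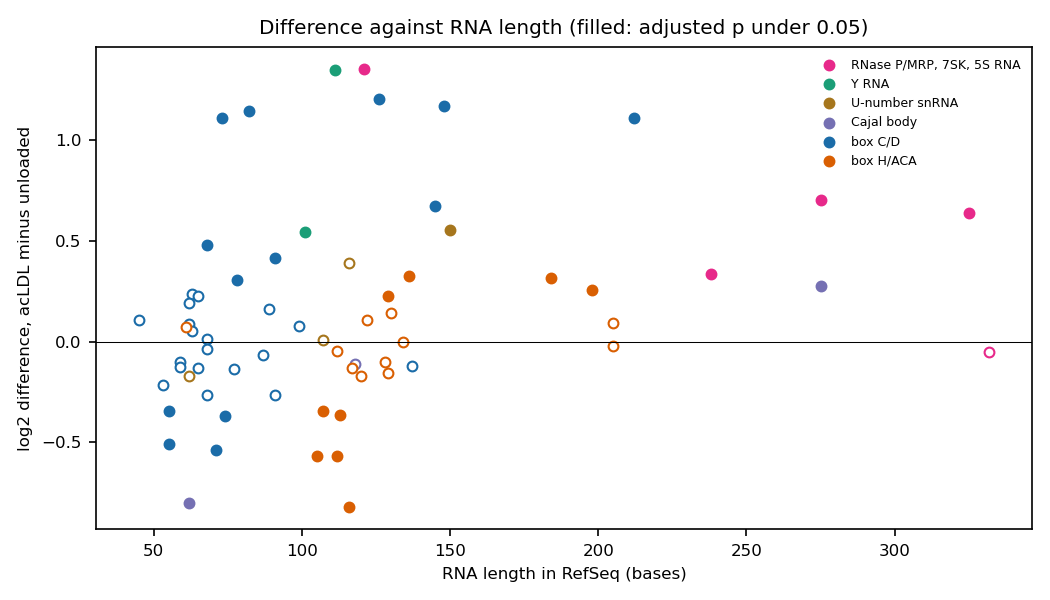
Log2 difference (acLDL minus unloaded, vertical axis) against RNA length in bases (horizontal axis) for the 66 small RNA genes, coloured by class, with filled points for a limma adjusted p under 0.05. Falls lie between 55 and 116 bases, and of the 16 RNAs above 130 bases 11 rose and 0 fell.

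Members with genes of their own and members inside other genes differed in makeup. A member was counted as enclosed where its span lay within that of another gene in the RefSeq table, which gives no strand. The 12 members with no enclosing gene had 8 rises and 0 falls, and 4 did not pass, with a median difference of 0.55. Those that rose were n-R5s136, Rny1, Rnu3a, Rmrp, Rpph1, Rnu12, Rny3 and Rprl2, and those that did not pass were Rnu6, Rn7sk, Snord118 and Rnu7. The median of the 12 levels was 7.98, 7.95, 7.84 and 8.20 in acLDL cells, against 7.41, 7.15, 7.24 and 7.09 in unloaded cells, so every acLDL array lay above every unloaded one. The 54 enclosed members had 13 rises and 10 falls, and 31 did not pass, with a median difference of 0.00. Stand-alone members were also longer, with a median of 143.5 bases against 91 for enclosed ones, so the 2 features cannot be told apart by these counts.

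Differences of enclosed snoRNAs showed no rank correlation with those of the genes around them. A measured enclosing gene with a single symbol was available for 30 members and made up 26 distinct genes, of which 8 rose, 3 fell and 15 did not pass. Over the 27 members with just 1 enclosing gene, which share arrays and in part hosts, Spearman's rho between the differences of small RNA and host was -0.01, and 9 of 27 pairs had the same sign. Of the 8 fallen snoRNAs with a measured host, 5 lay in genes that rose and 3 in genes that did not pass. Snord87, 1 of these 3, also lay in Snhg6, which had no probe set with a single symbol. Mcmdc2, the gene read for it, was at 4.93 in acLDL and 4.84 in unloaded cells, below the olfactory mark. Snora33 fell by 0.57 while its host Rps12, a ribosomal protein gene, rose by 0.40, to 11.75 ± 0.04 in acLDL cells against 11.34 ± 0.06 in unloaded cells (SD, n = 4; limma adjusted p = 0.000302). Snora31 fell by 0.57 while Tpt1, encoding the translationally controlled tumour protein, rose by 0.25. Snord42b lay in Rpl23a (0.37 higher), Snora41 in the elongation factor gene Eef1b2 (0.33 higher) and Snora30 in the chromatin remodeller gene Srcap (0.23 higher).

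The 5 risen snoRNAs with a measured host had larger differences than those hosts. They were picked by their own rise and the hosts were not, which by itself favours this order, so nothing is concluded from it. Rps3, a ribosomal protein gene, rose by 0.37, to 11.05 ± 0.05 in acLDL cells against 10.68 ± 0.04 in unloaded cells (SD, n = 4), while its intronic Snord15a and Snord15b rose by 1.17 and 0.67. Snord16a rose by 0.41 and Snora23 by 0.32, while their hosts Rpl4 and the importin gene Ipo7 differed by -0.06 each and did not pass. For each of the 30 pairs the log2 ratio of small RNA to host was compared between groups with a two-sided exact permutation test over arrays. The groups were separated in 15 pairs, 5 with the small RNA up relative to the host and 10 with it down. Of all genes taken singly 25.6% did not overlap, and the share for ratios of other gene pairs was not computed. Whether 15 of 30 is unusual is therefore not known. The exact p of these 15 was 0.0286, the smallest that 4 arrays against 4 can give, and 0.0571 after Benjamini-Hochberg adjustment over 30 pairs, so 0 pairs passed. With the small RNA down, the widest differences of the ratio were -0.97 for Snora33 and Rps12 and -0.82 for Snora31 and Tpt1. With the small RNA up, the widest was 0.80, for Snord15a and Rps3. Hosts of the other 24 enclosed members, Rpl13a and Snhg1 among them, had no probe set with a single symbol and were not analysed here.

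**Figure D4:**
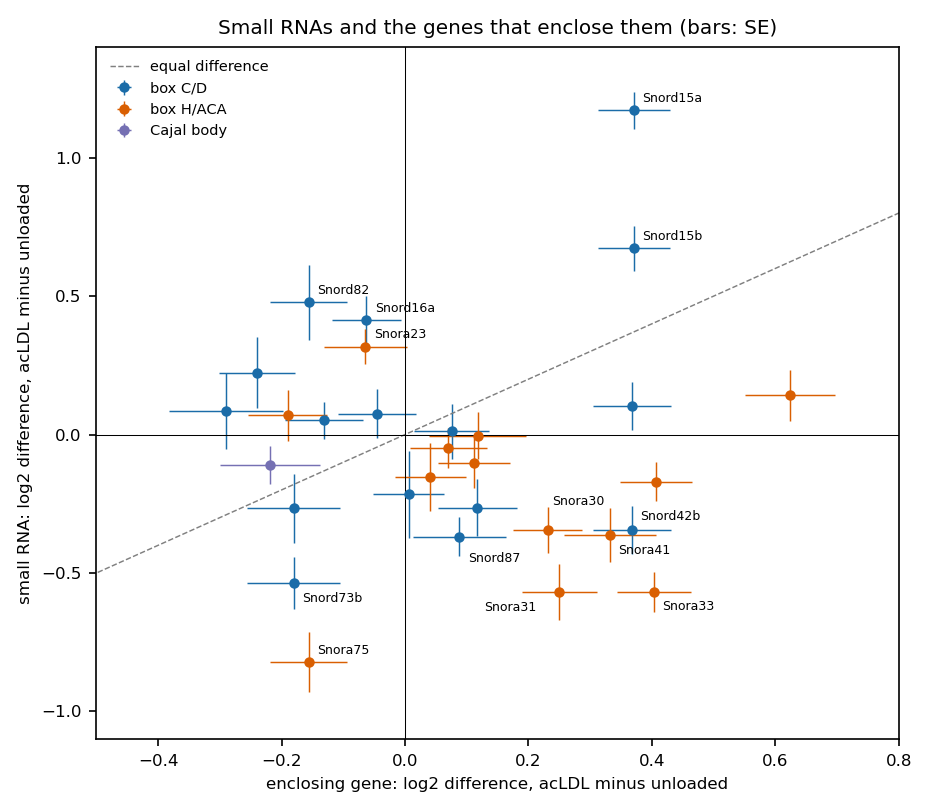
Log2 difference (acLDL minus unloaded) of 30 small RNAs (vertical axis) against that of the measured gene that encloses them (horizontal axis), with bars for the SE and a dashed line where both differ equally; named points are small RNAs that passed limma. Snora33, Snora31, Snora41, Snora30 and Snord42b lie below 0 with hosts above 0, and Snord15a and Snord15b lie above the line.

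Small RNAs from the same gene had unlike differences in some genes and like ones in others, and no pair passed after adjustment. There were 10 genes that enclosed 2 members each, and in 5 of the 10 pairs the log2 ratio of the 2 members separated the groups. The widest was in Ncl, which encodes nucleolin and itself differed by -0.16 (limma adjusted p = 0.0926), where Snord82 rose by 0.48 and Snora75 fell by 0.82, a difference between them of 1.30. In Rpl13a, Snord33 rose by 1.15 and Snord35a differed by 0.16, with a 95% interval from -0.15 to 0.47. Snord35a was at 6.41, 6.92, 6.66 and 7.19 in acLDL cells, against 6.50, 6.39, 6.87 and 6.79 in unloaded cells, so its groups overlapped where those of Snord33 did not. In Rps3, Snord15a exceeded Snord15b by 0.50, and in Rpl23a Snord42a exceeded Snord42b by 0.45. Each of these 4 pairs had a two-sided exact permutation p of 0.0286, the smallest possible, and 0.0571 after adjustment over the 10 pairs, which did not pass. The other 5 pairs, in Snhg12, Rps3a1, Snhg3, Rack1 and 2410006H16Rik, had overlapping ratios. How often ratios of other gene pairs separate was not computed, so 5 of 10 has no share to stand against. Snord82, Snora75, Snord42a and Snord42b lie below the olfactory mark, so the contrasts in Ncl and Rpl23a rest wholly on dim probe sets. The members in Rps3 and Rpl13a had means above it. The call of Snord82 was also lost in 6 of 18 alternative settings.

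**Figure D5:**
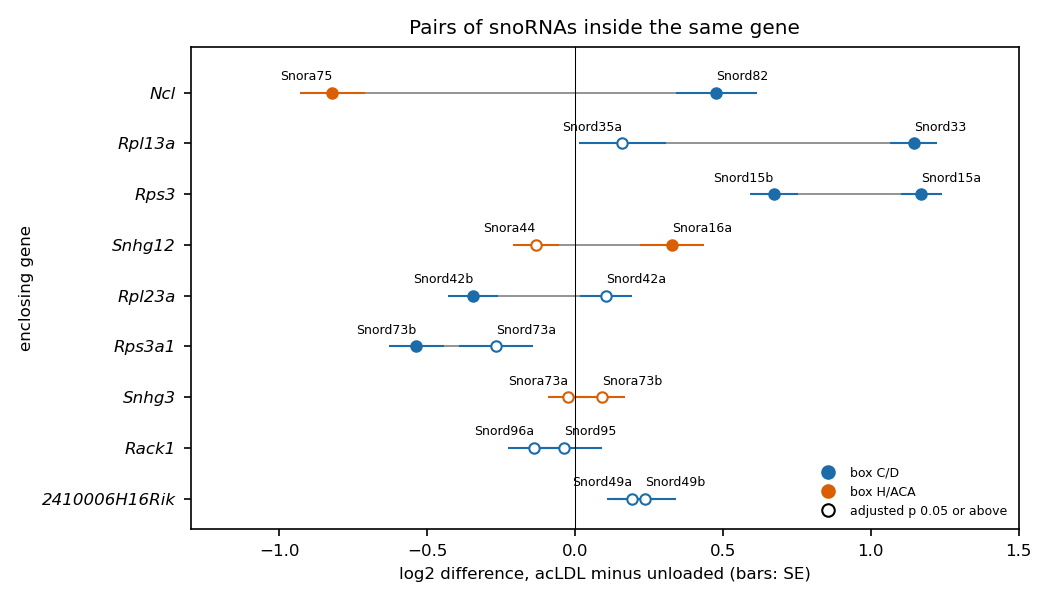
Log2 difference (acLDL minus unloaded, horizontal axis, bars for the SE) of the 2 snoRNAs inside each of 9 of the 10 genes (rows), filled where limma's adjusted p was under 0.05. In Ncl the 2 lie on opposite sides of 0, at 0.48 and -0.82, and in Rpl13a they lie at 1.15 and 0.16.

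Proteins that bind these RNAs were read from lists chosen with earlier results of these data known. Their counts stand against the 12.9% of all genes that were higher and the 10.5% that were lower. Of 15 proteins and assembly factors of box C/D particles 7 rose, 1 fell and 7 did not pass, with a median difference of 0.21. Fbl, the methyltransferase fibrillarin, rose by 0.57, to 8.47 ± 0.09 in acLDL cells against 7.90 ± 0.06 in unloaded cells (SD, n = 4). Rrp9, a protein of the U3 particle, rose by 0.59, Znhit3, an assembly factor, by 0.50, and Snu13, the protein that binds the box C/D core, by 0.40. Nop56 and Nop58, the other core proteins, differed by -0.13 and 0.21 and did not pass. Of 10 proteins of box H/ACA particles and Cajal bodies 3 rose, 1 fell and 6 did not pass, with a median of 0.00. The core proteins went apart, with Nhp2 and Nop10 higher by 0.54 and 0.39 and Gar1 lower, by a difference of -0.30, while Dkc1, which encodes dyskerin, differed by -0.16 and did not pass. Nolc1, a nucleolar chaperone of both particles, rose by 0.35.

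Of 11 proteins of RNase P and RNase MRP 5 rose, 0 fell and 6 did not pass, with a median of 0.15. Rpp25, its paralog Rpp25l, Pop7 and Pop5 were higher by 0.43, 0.41, 0.33 and 0.30. Of 9 partners of 7SK and Y RNA 1 rose, 3 fell and 5 did not pass. Those that fell belong to the 7SK particle or to P-TEFb, with differences of -0.47 for Ccnt1 and -0.45 for Ccnt2, the cyclins of P-TEFb, and -0.37 for Hexim1, its inhibitor. Larp7, which stabilises 7SK, rose by 0.23 with overlapping groups, and the call was lost in 11 settings. Ro60, which binds Y RNAs, differed by -0.16 and did not pass. Of 28 subunits and factors of RNA polymerase III 4 rose, 4 fell and 20 did not pass, with a median of 0.00, so both shares were near those of all genes. Among them Gtf3a, the factor that recruits the polymerase to 5S genes, rose by 0.50 and the subunit gene Crcp by 0.40. Brf1, of the factor that binds transfer RNA and 5S genes, had a difference of -0.32, and Snapc3, of the factor for 7SK-type promoters, one of -0.30. Brf2 and Gtf3c1 also rose, by 0.29 and 0.18, and Tbp and Snapc1 also fell, with differences of -0.24 and -0.22.

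Of 25 Sm, LSm and other spliceosomal RNA-binding proteins 8 rose, 3 fell and 14 did not pass, with a median of 0.07. Lsm3, Snrpb, Lsm4 and Snrpa1 rose by 0.60, 0.58, 0.56 and 0.54. Of 17 exosome and trimming factors, which shorten precursors of small RNAs, 3 rose, 4 fell and 10 did not pass. Exosc5 rose by 0.42, and Exosc9, the deadenylase gene Toe1 and the cofactor gene C1d had differences of -0.40, -0.37 and -0.36. Of 8 measured long noncoding RNAs that host snoRNAs or microRNAs 0 rose, 4 fell and 4 did not pass. Snhg5, the microRNA host Mir17hg, Gas5 and Snhg17 had differences of -0.41, -0.35, -0.24 and -0.23, and the call of Snhg17 was lost in 12 settings.

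The genes whose pattern over the 8 arrays was most like the mean profile of the 40 members above the olfactory mark were Ifi35, Tnip3, Nfkbia, Cc2d1b and Cd36. Their Pearson correlations with it ran from 0.982 to 0.992, over 8 arrays that fall into 2 groups. Likeness of pattern does not give the size of a change: Cd36 differed by 0.06 and did not pass (limma adjusted p = 0.448). Ifi35, an interferon-induced gene, was at 7.56 ± 0.11 in acLDL and 7.14 ± 0.07 in unloaded cells (SD, n = 4). Nfkbia, which encodes the inhibitor of NF-kB, was at 9.32 ± 0.11 in acLDL and 8.90 ± 0.12 in unloaded cells (SD, n = 4).

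The cell type was checked with 9 macrophage markers, which all lay above the olfactory mark. Of these 5 rose and 1, Cd14, fell, and their summed linear signal was 22896 to 23638 in acLDL and 21179 to 22627 in unloaded arrays. Of 7 measured markers of T and NK cells, 5 of B cells and 6 of dendritic cells 0 changed. Ly6g fell among 7 neutrophil markers, at 4.46 in acLDL and 4.79 in unloaded cells, below the mark, and the other 6 did not pass. Siglecf fell among 8 markers of eosinophils and mast cells, with a difference of -0.60, and was the only 1 above the mark. The other 7, Epx, Prg2 and Cpa3 among them, lay below it and did not pass. The sum of the 8, of which Siglecf was the brightest, was 405 to 436 in acLDL and 487 to 522 in unloaded arrays. Of 9 fibroblast and mesothelial markers 7 were above the mark, 1 rose and 2 fell, and the sum was 5067 to 5659 in acLDL and 5331 to 6543 in unloaded arrays. The part of other cells in the small RNA results was not tested, and in such bulk samples fewer cells of a type and less RNA per cell cannot be told apart. The second principal component, with 18.0% of the variance, set unloaded arrays 1 and 4 apart from 2 and 3. Without arrays 1 and 4, 21 members rose and 9 fell, and without arrays 2 and 3, 18 rose and 10 fell.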

How the data were processed

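The deposited values are log2 expression per probe set, which the authors made with RMA (named in the submitters' processing notes). This method corrects background, equalises the distributions of the arrays and combines probes. The sources used here do not give its version or settings. Of 35557 deposited probe sets 21789 had 1 gene symbol in the platform annotation, which gave 19938 genes. With 4 arrays per group, that number sets the precision.

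Two-sided limma fits without a block (version 3.58.1, R 4.3.3) used lmFit and eBayes. P-values were adjusted by Benjamini and Hochberg over all 19938 genes and called below 0.05. The step was tested on simulated data. Exact permutation tests used scipy 1.17.1, and figures matplotlib 3.10.9. All 66 members were found in the RefSeq table of genes on GRCm38.p6, from which lengths and enclosing genes were taken; the sources used here do not name the build of the annotation. Probe sets of a short RNA may also bind the intron around it, which was not tested.

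The members, the lists and the alternatives were chosen with earlier results of these data known. Members were named if they were among the 8 largest called rises or falls of box C/D, box H/ACA or Cajal body RNAs, the 3 brightest of a class, the 3 with the widest unloaded range, or in a class of up to 12, with their hosts, up to 4 changed genes per list and the 5 genes of most similar pattern. Snord118, Snord14e, Snord35a, Snord42a, Snora73a, Nop56, Nop58, Dkc1, Ro60, Brf2, Gtf3c1, Tbp and Snapc1 fall outside this rule and were picked once their values were known. The planned search for box C and TATA motifs could not be run, since no sequence window of a member was held. One pair of snoRNAs that share a gene is not reported here.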

Additional observations from a re-analysis of the deposited data

Results flagged for a closer look

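In 8 of 82 groups of 4 arrays, 1 array of a named small RNA lay apart from the other 3 by Dixon's criterion, which chance meets in about 1 of 20 groups. Among genes that were called, the acLDL arrays of Snora30 were set apart by array 4, at 6.28. That array lay just below the lowest unloaded array, at 6.29, so the groups did not overlap by a narrow gap. The unloaded arrays of Snord82 were set apart by array 4, at 4.83, which was also the array that overlapped with acLDL cells. The unloaded arrays of Rny3 were set apart by array 1, at 11.37, and those of Rmrp by array 3, at 11.23, both on the side of the acLDL arrays. Among genes that were not called, Rn7sk had a low acLDL array 1, at 13.12, and Snora73b a low acLDL array 3, at 7.42. Rnu5g had a low unloaded array 3, at 3.24, and Rnu6 a low unloaded array 2, at 2.79, both below the olfactory mark.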

How the results depend on the processing

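Under 20 alternative settings the number of members that rose ran from 17 to 23. The number that fell ran from 5 to 12, apart from the setting that tested every probe set, where 14 probe sets rather than genes were lower. Leaving out each array in turn gave 17 to 21 rises and 10 to 12 falls, a box C/D median from 0.01 to 0.09 and a box H/ACA median from -0.08 to -0.00. With genes below the olfactory mark removed, 40 members were tested, 18 rose and 5 fell, and the box C/D median was 0.19. The medians are small against the spread of array medians within a group (0.116 for box C/D and 0.094 for box H/ACA, SD) and carry no direction. With a replicate block 23 rose and 11 fell. Correlations of same-numbered deviations were 0.11, -0.16, 0.30 and 0.14, within the range of differently numbered ones, from -0.33 to 0.31. Such correlations cannot settle whether equal replicate numbers mark a shared preparation. Of the 31 called members 25 kept their call wherever they were tested, 17 higher and 8 lower, except that the setting with every probe set was not followed gene by gene; the others were Snord82, Snora16a, Snora7a, Scarna13, Snord42b and Snora41. Of the 35 that did not pass, Rnu5g, Snord49b, Snord49a, Snord14e and Snora3 passed in some setting, as did the second probe set of Rn7sk where every probe set was tested. No called value of a gene named by the naming rule changed sign in these settings. Dim probe sets limit what the 26 members at or below the olfactory mark can show.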
